A study of Rattus norvegicus with 6 samples.

Results

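Acrosome genes were followed through germ cell development in the testis of SD rats, an outbred laboratory strain. The 10 genes, Acrv1, Acr, Acrbp, Spaca1, Spaca3, Spaca7, Zpbp, Zpbp2, Spam1 and Crisp2, were given by name, and all 10 were among the 21170 genes of the deposited tables of all 6 libraries. The libraries were single-cell RNA libraries of testicular tissue, 1 per animal. The stressed group was 3 rats that had been exposed to frightening sound as a model of psychological stress, and the control group was 3 normal rats. The labels give no age, length of exposure or further treatment. The comparison of the groups asks whether the stress moved these genes at any stage.

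The acrosome is a secretory vesicle that covers the front of the sperm nucleus. It is built from Golgi-derived vesicles in round spermatids, the cells that follow meiosis, and spreads over the nucleus while the spermatid elongates. Its contents are released when sperm meet the egg's coat, and its inner membrane carries proteins that act in fusion. Among the 10 genes, Acr encodes acrosin, a serine protease stored as an inactive precursor, and Acrbp encodes the protein that binds this precursor. Spam1 encodes a surface hyaluronidase. Zpbp and Zpbp2 encode matrix proteins that bind the zona pellucida, and Acrv1 encodes the matrix protein SP-10. Spaca1 encodes an inner acrosomal membrane protein, Spaca3 a lysozyme-like protein, and Spaca7 a secreted acrosomal protein. Crisp2 encodes a cysteine-rich protein that is found in the acrosome and also in the sperm tail.

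The libraries held 409, 2506 and 2233 cells in stressed replicates 1 to 3, against 2342, 1801 and 2453 cells in control replicates 1 to 3. Total counts lay between 16756543, in stressed replicate 1, and 114984746, and the median per cell between 27987 and 41632. Cells were clustered without the acrosome genes, and 11449 of the 11744 cells fell in classes named from marker lists that hold none of these genes. Spermatocyte-like cells numbered 23, 225 and 361 in the stressed libraries, against 465, 149 and 121 in the controls. Round spermatid-like cells numbered 99, 525 and 838 in the stressed libraries, against 681, 566 and 1068 in the controls. Elongating spermatid-like cells numbered 62, 1748 and 1030 in stressed, against 1191, 1034 and 1263 in control libraries. Stressed replicate 1 stood apart: 54.5% of its cells lay in a cluster left unnamed, which was led by Apoe, Fos and Cd74. Libraries shared 2 cell barcodes. Levels are in CPM, a gene's counts scaled to the total of all counts summed over the cells of a library and class, so fewer transcripts of a gene and more of the others cannot be told apart. CPM is not divided by transcript length, and levels are compared only within a gene.

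Germ cells were also placed on a stage axis, a diffusion pseudotime that orders cells by similarity of expression from a root in the spermatocyte-like cells. The axis was divided into 10 bins of equal cell number. Bin 1 held 1143 spermatocyte-like cells and 1 round spermatid-like cell. Bin 2 was mostly, and bins 3 and 4 almost wholly, round spermatid-like, bin 5 held 543 round and 602 elongating spermatid-like cells, and bins 6 to 10 were elongating spermatid-like. A library was read in a bin where it had at least 20 cells, which all 6 libraries did in bins 1, 3, 4 and 5, and all but stressed replicate 1 did in the others. Because stages were found from the same cells, contrasts between stages are descriptions without a test.

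The acrosome genes did not switch on together (plot of levels by bin and library). In bin 1 Zpbp2 was at its peak, and Acr, Acrbp, Zpbp and Crisp2 stood at 56.7% to 70.4% of theirs. Acrv1, Spam1, Spaca1, Spaca3 and Spaca7 stood there at 5.69% to 14.1% of their own peaks, which they reached in bin 3 in the mean over libraries. The genes also differed over the 3 clusters of the spermatocyte-like class. In cluster 17, the earliest on the axis and led by meiotic genes such as Hormad1, Acr stood at 80.1 CPM and Zpbp2 at 24.9 CPM, means of the 2 libraries with enough cells. In cluster 14, Acr averaged 393 ± 55.4 CPM and Zpbp2 196 ± 41.9 CPM (SD, n = 4 libraries), and in cluster 3, the latest, 628 ± 80.9 CPM and 300 ± 64.6 CPM (SD, n = 5 libraries). Spam1 averaged 0.694 ± 0.617 CPM in cluster 14 and 39.0 ± 15.9 CPM in cluster 3. Acrv1 averaged 1.65 ± 2.13 CPM and 38.5 ± 11.2 CPM in these clusters. Both genes thus came up at the end of the spermatocyte-like class, after Acr and Zpbp2.

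**Figure D1:**
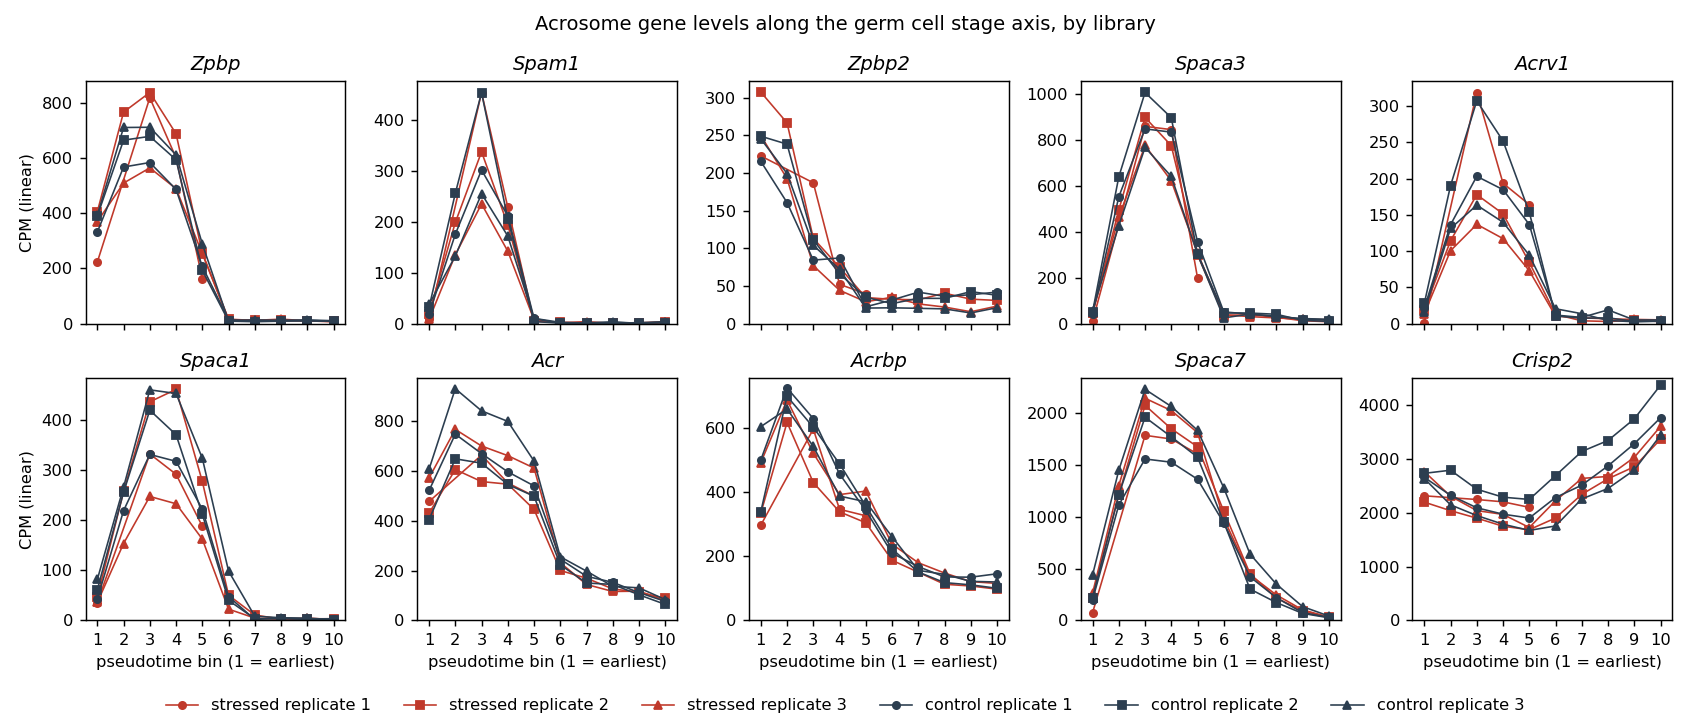
CPM of each acrosome gene (linear axis, own scale per gene) in 10 pseudotime bins, with stressed libraries in red and control libraries in dark blue; a point is 1 library with at least 20 cells in the bin. Zpbp2 was highest in bin 1, most other genes in bins 2 to 4, and Crisp2 in bin 10; stressed replicate 1 has no points in bin 2 or after bin 5.

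Zpbp2 was the gene that peaked first. Its level in bin 1 was 223, 308 and 249.9 CPM in the stressed libraries, against 216, 249.01 and 246 CPM in the controls, and the groups overlapped. It stood at 38.7% ± 5.37 of that level in bin 3 and at 11.1% ± 2.06 in bin 5, and between 11.5% and 12.5% in bins 6 to 10 (SD over the 5 libraries with cells in every bin). Its relative Zpbp followed another course. Zpbp was at 56.7% ± 6.10 of its peak in bin 1, peaked in bin 3, stood at 36.0% ± 6.87 in bin 5 and had dropped to 1.86% ± 0.57 in bin 6.

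Acr and Acrbp, the protease and its binding partner, peaked together in bin 2 in 5 of 5 libraries. In bin 1 they already stood at 68.6% ± 4.82 and 67.0% ± 16.9 of their peaks. They faded slowly, to 31.6% ± 2.78 and 33.1% ± 4.20 in bin 6 and 10.8% ± 2.19 and 17.02% ± 2.20 in bin 10. Transcripts of this pair were therefore still counted in the latest elongating spermatid-like cells.

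Spam1 was high in a narrow window. It stood at 7.44% ± 4.29 of its peak in bin 1, at 56.6% ± 2.70 in bin 2, at 60.2% ± 9.72 in bin 4 and at 2.48% ± 1.33 in bin 5. In bin 3, its peak, it was at 454, 337 and 235 CPM in the stressed libraries, against 302, 453 and 255 CPM in the controls. The high libraries were stressed replicate 1 and control replicate 2, and the groups overlapped. Acrv1 was high in the same 2 libraries, with 319, 178 and 137 CPM in stressed animals in bin 3, against 203, 307 and 163 CPM in controls. These 2 libraries also filled other clusters of the round spermatid-like class than the rest: cluster 11 held 37.4% of such cells in stressed replicate 1 and 41.7% in control replicate 2, and at most 21.7% in each of the other 4 libraries. The part of this in the levels was not tested. Acrv1 lasted longer than Spam1 and was at 55.1% ± 7.80 of its peak in bin 5 and 7.23% ± 3.33 in bin 6.

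Spaca1, Spaca3 and Spaca7 started low and peaked in bin 3 in the mean over libraries, and Spaca1 peaked in bin 4 in 1 of 5 libraries. They differed in how long they lasted. In bin 5 Spaca3 was at 36.9% ± 4.95 of its peak, Spaca1 at 63.4% ± 7.62 and Spaca7 at 83.1% ± 2.96. In bin 6 the values were 4.51% ± 1.07 for Spaca3, 13.2% ± 5.04 for Spaca1 and 52.5% ± 6.12 for Spaca7. Spaca7 had reached 1.62% ± 0.29 in bin 10.

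Crisp2 followed a course of its own among the 10. It was at 70.4% ± 6.46 of its peak in bin 1, lowest in bin 5 at 49.7% ± 1.44, and highest in bin 10 in 5 of 5 libraries. Its level there was 3364 and 3603 CPM in stressed replicates 2 and 3, against 3765, 4371 and 3440 CPM in the controls. Over the 54 library and bin points with enough cells, the log2(CPM + 1) of Crisp2 had a Pearson r of -0.62 with the mean of the 10 genes. That of Zpbp2 was 0.70 and that of Spaca7 0.77, and the other 7 genes lay between 0.92 and 0.96. Each gene is itself part of that mean, which raises its r, and the points share libraries and depth, so these values are descriptions.

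**Figure D2:**
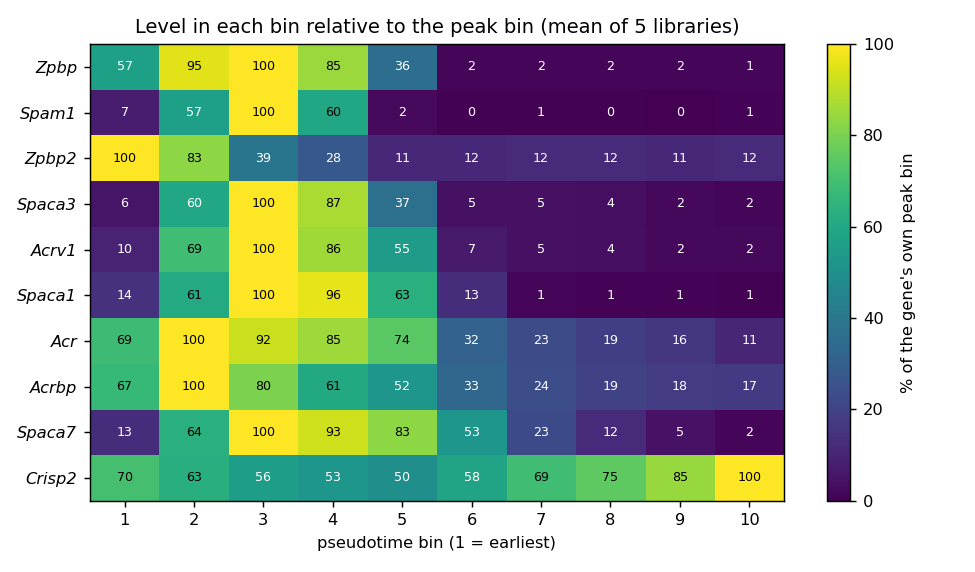
Level of each acrosome gene in each pseudotime bin as a percent of its own peak bin, mean of the 5 libraries with cells in every bin; rows are ordered by the mean bin of the gene over all 6 libraries. Acr, Acrbp, Zpbp, Zpbp2 and Crisp2 are above 50% of their peaks in bin 1, and Spam1 is down to 2% by bin 5 where Spaca7 is at 83%.

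The mean bin, weighted by CPM, was taken over the 5 libraries with at least 20 cells in every bin. It put the genes in the order Zpbp, Spam1, Zpbp2, Spaca3, Spaca1, Acrv1, Acr, Acrbp, Spaca7 and Crisp2. It was 2.97 ± 0.04 for Zpbp and 5.92 ± 0.07 for Crisp2 (SD, n = 5 libraries). Crisp2 came after Spaca7 by 1.77 ± 0.11 bins, Spaca7 after Acrbp by 0.204 ± 0.095 bins and Acr after Acrv1 by 0.287 ± 0.163 bins (SD), each in 5 of 5 libraries. Acrbp came after Acr, and Spam1 after Zpbp, in 5 of 5 libraries too, by 0.095 ± 0.069 and 0.061 ± 0.035 bins. The neighbours from Spam1 to Acrv1 did not hold their order in every library. With stressed replicate 1 added, which has 16, 3, 2, 0 and 3 cells in bins 6 to 10, Acrv1 and Spaca1 changed places. In that library Spam1 came before Zpbp, at mean bins of 2.91 and 3.004, and Acrbp before Acr, at 3.58 and 3.67. With clusters in place of bins, 3 of the 10 genes kept their rank in the order over all 6 libraries.

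The share of cells with at least 1 count was taken before and after each cell was thinned to 10000 counts. After thinning, Spam1 was counted in 13.2% ± 4.98 of spermatocyte-like cells, in 57.8% ± 6.59 of round and in 1.10% ± 0.29 of elongating spermatid-like cells (SD, n = 6 libraries), and before thinning in 21.1% ± 7.34, 70.8% ± 4.18 and 2.69% ± 1.18. Zpbp2 was counted in 69.0% ± 5.02, 40.9% ± 4.93 and 14.4% ± 5.31 of these cells, and before thinning in 81.0% ± 3.71, 57.7% ± 7.99 and 26.2% ± 10.4. Crisp2 was counted in at least 98.7% of cells in the mean of every class. The median total per cell was 32840, 37790 and 33630 in these classes, and 0 cells were left out. No class that should lack these genes was found in which to measure the share that free RNA gives.

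Start regions are shown for 4 of the genes. Spam1 and Acrv1 were low in bin 1 and peaked in bin 3, and Acr and Zpbp2 were already high in bin 1. RefSeq's table for GRCr8 held a promoter, 300 bases around the annotated start, for 9 of the 10 genes. The regions are chr4:54268037-54268336 for Spam1, chr8:44592996-44593295 for Acrv1, chr7:122517684-122517983 for Acr and chr10:84055034-84055333 for Zpbp2, each on the plus strand. Capitals mark TGANGTCA, a loose form of the cAMP response element that Crem-type factors bind, and ACACAC, a string known from the mouse Acrv1 promoter, each also where it lies on the other strand. The Zpbp2 promoter holds neither.
Spam1: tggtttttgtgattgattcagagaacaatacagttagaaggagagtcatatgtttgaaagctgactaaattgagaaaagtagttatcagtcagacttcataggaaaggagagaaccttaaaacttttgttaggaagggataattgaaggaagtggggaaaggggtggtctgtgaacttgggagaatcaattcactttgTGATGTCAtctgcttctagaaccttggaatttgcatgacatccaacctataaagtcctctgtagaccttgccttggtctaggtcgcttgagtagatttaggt
Acrv1: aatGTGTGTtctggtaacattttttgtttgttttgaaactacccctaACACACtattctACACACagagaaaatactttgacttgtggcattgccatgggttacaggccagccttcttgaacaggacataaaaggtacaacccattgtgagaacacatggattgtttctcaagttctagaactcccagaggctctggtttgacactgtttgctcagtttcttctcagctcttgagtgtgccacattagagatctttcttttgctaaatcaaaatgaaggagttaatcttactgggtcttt
Acr: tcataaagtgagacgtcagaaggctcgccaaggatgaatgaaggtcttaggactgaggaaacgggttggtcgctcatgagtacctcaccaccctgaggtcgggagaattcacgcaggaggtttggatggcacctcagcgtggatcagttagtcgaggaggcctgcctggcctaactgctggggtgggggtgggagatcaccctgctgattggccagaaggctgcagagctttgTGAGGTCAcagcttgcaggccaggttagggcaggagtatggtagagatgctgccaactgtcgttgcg
Zpbp2: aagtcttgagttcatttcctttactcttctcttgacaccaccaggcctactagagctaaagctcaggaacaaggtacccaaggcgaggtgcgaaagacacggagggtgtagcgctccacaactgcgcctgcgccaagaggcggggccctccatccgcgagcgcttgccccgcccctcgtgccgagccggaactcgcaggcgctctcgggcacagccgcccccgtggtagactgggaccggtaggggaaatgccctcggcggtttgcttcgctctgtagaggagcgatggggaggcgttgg
TGANGTCA was in 3 of the 9 promoters, those of Acr, Spaca7 and Spam1, and in 10.2% of all 33469 promoters of that length in the table. ACACAC was in the Acrv1 promoter alone among the 9, and in 16.2% of all. The exact element TGACGTCA, a special case of TGANGTCA, was in 0 of the 9 and in 1.83% of all. The marked strings were chosen after the promoters had been read, from 14 strings searched on both strands. The other 11 were TGACGTNA (0 of 9, 3.25% of all), TGACG (3 of 9, 21.2%), GTTGCC (1 of 9, 12.2%), the full-length X-box of RFX factors (0 of 9, 0.0986%), AACNGNC (5 of 9, 33.8%), CTNNNNAG (9 of 9, 78.2%), TATAAA (1 of 9, 14.2%), CCAAT (1 of 9, 37.5%), TGACCT (1 of 9, 16.2%), GGGCGG (4 of 9, 33.1%) and AACAAT (2 of 9, 11.7%). TGACGTNA, TGACG and TGACGTCA overlap one another, as do GTTGCC and the X-box. The TGACCT match in the Acr promoter, on the other strand, lies within the stretch marked there for TGANGTCA, so the same bases count for both strings. The matches describe letters in these windows.

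Other genes of the acrosome, from 3 further lists, were counted in the same bins. Of the 10, 1 peaked in bin 1, 8 in bins 2 to 5 and 1 in bins 6 to 10. Among 29 other genes of acrosomal contents and membranes with at least 10 CPM in a bin, the counts were 7, 16 and 6. Among 30 genes of acrosome formation, which act in Golgi traffic, the acroplaxome and the perinuclear theca, they were 16, 7 and 7, and among 13 genes of the acrosome reaction 4, 7 and 2. Of all 7935 genes at that level, 48.8% peaked in bin 1, 37.2% in bins 2 to 5 and 14.03% in bins 6 to 10. The listed genes with the highest peaks outside bins 2 to 5 were Spink2, a serine protease inhibitor, at 8031 ± 678 CPM, Dkkl1, an acrosomal glycoprotein, at 1952 ± 90.3 CPM and the chaperone gene Hsp90b1 at 1217 ± 110 CPM, all in bin 1. In bin 7 they were Cylc2, a protein of the perinuclear theca, at 2175 ± 413 CPM and the cystatin gene Cst13 at 1857 ± 400 CPM (SD, n = 5 libraries).

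Among 5415 genes outside the acrosome lists with a mean of at least 10 CPM, the 8 most like the mean of the 10 over the 54 points were Tekt2, ENSRNOG00000040095, Lrif1, Crem, Stk35, Ftmt, Tasor2 and ENSRNOG00000022601, with Pearson r of 0.974 to 0.978. Tekt2 encodes a tektin of the sperm tail and Crem a transcription factor of round spermatids, which is also on the marker list that named those cells.

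No acrosome gene passed the test between stressed and control animals in any class. edgeR's quasi-likelihood test on summed counts called 0 of 10 at an adjusted p under 0.05 in each of 3 classes and in whole libraries. By edgeR 0 of 10 had an unadjusted p under 0.05 in each, and DESeq2 also called 0 of 10 in each. DESeq2 gave Spam1 in spermatocyte-like cells an unadjusted p of 0.041, with an adjusted p of 0.99991. Alternative edgeR settings also gave unadjusted p values under 0.05 in these cells. Spam1 had one in several settings, the lowest 0.033 without stressed replicate 2. Spaca1 was at 0.041 without control replicate 1, and Spaca7 at 0.046 with the replicate block. Adjusted p values by edgeR for these 3 were 0.99984, 0.99986 and 0.9976. Over all genes edgeR called 0% of 9955 in spermatocyte-like cells, 0.0166% of 12051 in round and 0.00895% of 11175 in elongating spermatid-like cells, and 0.00689% of 14519 in whole libraries. The called genes were AABR07001902.1, higher in stressed animals in the last 3 of these with log2 changes of 3.55, 3.59 and 3.77, and ENSRNOG00000071151, lower in round spermatid-like cells with -4.19. At an unadjusted p under 0.05 the shares were 1.51%, 3.15%, 1.72% and 1.38%.

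In spermatocyte-like cells Spam1 and Acrv1, the hyaluronidase and the matrix protein that came up at the end of this class, had the largest log2 changes of the 10, and neither passed. Spam1 was at 14.3, 23.9 and 12.4 CPM in the stressed libraries, against 25.0, 37.8 and 42.1 CPM in the controls. All stressed libraries lay below all controls, stressed replicate 2 only just. The log2 change was -0.98 (SE 0.45; edgeR, unadjusted p = 0.054, Benjamini-Hochberg adjusted p = 0.9995). Acrv1 was at 5.96, 23.3 and 18.1 CPM in the stressed libraries, against 23.8, 34.2 and 36.6 CPM in the controls. Here too the groups did not overlap, by a margin of less than 1 CPM, and the value in stressed replicate 1 rests on 5 counts. Its log2 change was -0.85 (SE 0.52, adjusted p = 0.9995 by edgeR) and -0.50 without stressed replicate 1. Groups lay apart in this direction for 6.44% of all genes tested in these cells, and with stressed higher for 1.88%.

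The other genes of the class overlapped between the groups. Spaca1 was at 41.7, 55.0 and 40.9 CPM in stressed libraries, against 47.5, 69.6 and 119 CPM in controls, a log2 change of -0.73 (SE 0.42) that was -0.21 without control replicate 3. Spaca7 was at 113, 275 and 329 CPM in stressed libraries, against 220.4, 283 and 636 CPM in controls, with a log2 change of -0.61 (SE 0.49) that was 0.10 without control replicate 3. In these 2 genes control replicate 3 was the high library. Acr, Acrbp, Spaca3, Zpbp and Crisp2 had log2 changes of -0.09 to -0.32, and Zpbp2, the gene that peaks at this stage, 0.12 (SE 0.26). In all, 9 of 10 were below 0 with a median of -0.27, and 47.7% of all genes were above 0, with a median of -0.03.

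The make-up of the class and markers of other cell types also differed between libraries. Cluster 3, where Spam1 and Acrv1 come up, held 56.5%, 58.7% and 77.6% of the spermatocyte-like cells in stressed replicates 1 to 3, against 69.9%, 63.8% and 84.3% in the controls. In cluster 3 alone Spam1 was at 37.0 and 16.1 CPM in stressed replicates 2 and 3, against 36.0, 59.5 and 46.5 CPM in the controls, so that the groups overlapped, and stressed replicate 1 had too few cells. In the spermatocyte-like cells of bin 1 alone Spam1 was at 7.91, 19.6 and 8.01 CPM in stressed libraries, against 18.7, 32.1 and 37.5 CPM in controls, and the groups again overlapped (2-sided exact permutation test, p = 0.2, where 0.1 is the smallest p that 3 against 3 libraries allow). Macrophage markers, 12 of 12 in the table, summed to 1085 CPM in the 23 cells of stressed replicate 1, with 3 of the 12 at 0, against 27.3 to 55.2 CPM in the other 5 libraries. Stromal markers, 8 of 8 in the table, summed to 776 CPM, with 4 at 0, against 4.66 to 18.2 CPM. Their part in the result was not tested.

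**Figure D3:**
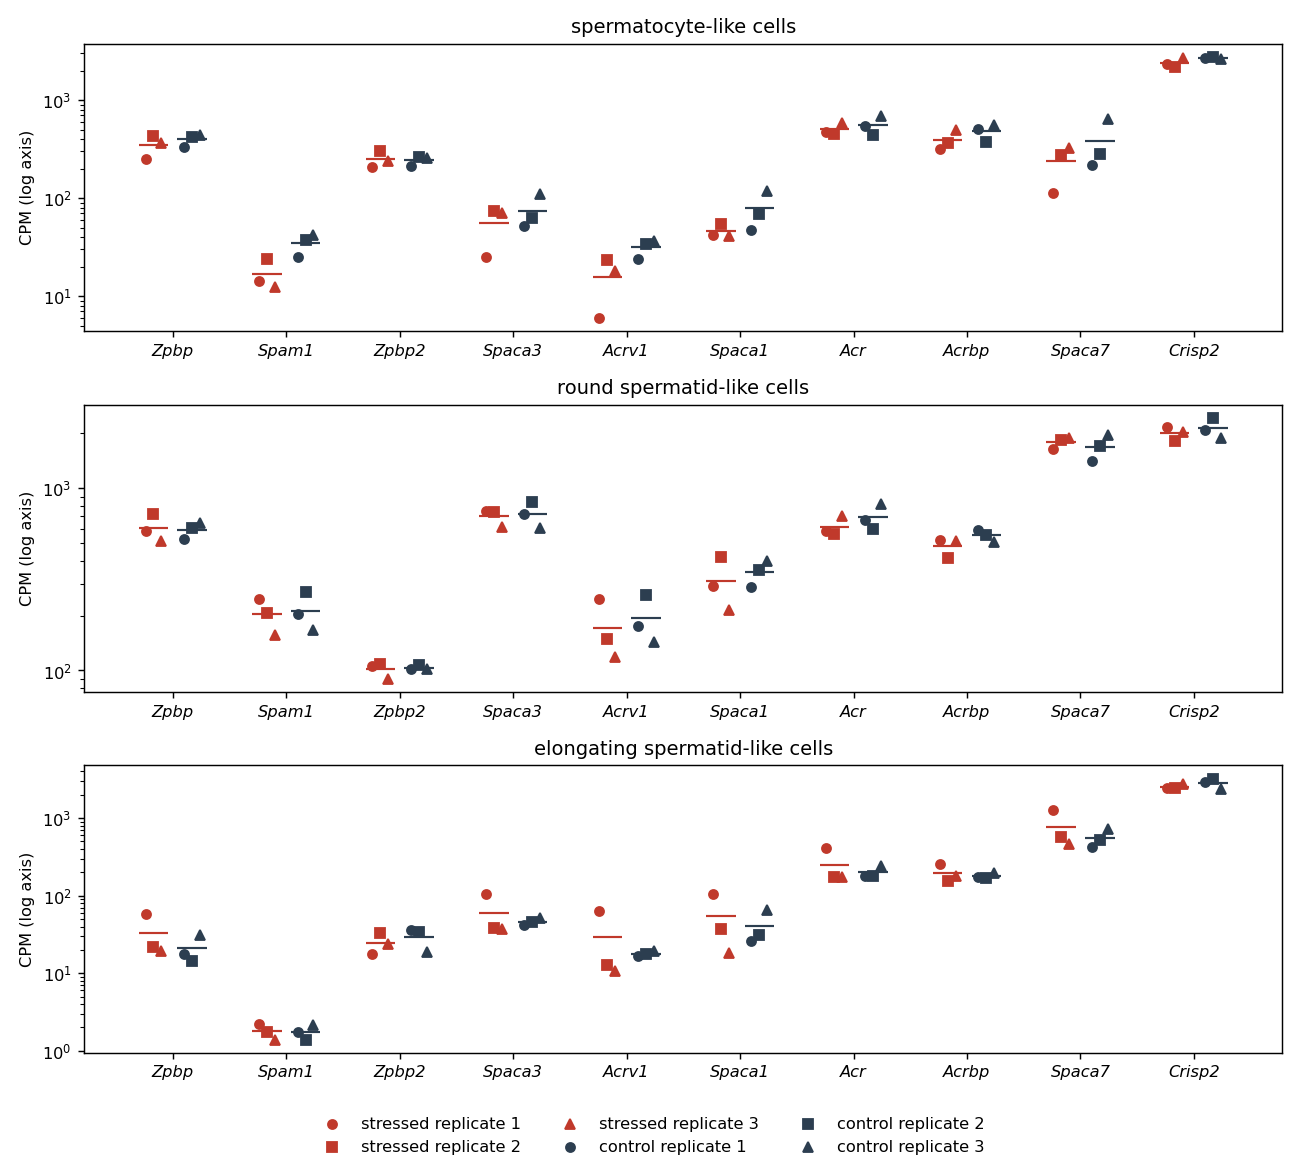
CPM of each acrosome gene (log axis) in the spermatocyte-like class and in both spermatid-like classes, with stressed libraries in red left of control libraries in dark blue; a point is 1 library and a line the mean of 3. Stressed and control points lie apart for Spam1 and Acrv1 in spermatocyte-like cells, and stressed replicate 1 is the highest point for 8 of the 10 genes in elongating spermatid-like cells.

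In round spermatid-like cells, where the acrosome forms, the groups overlapped for all 10 genes, while stressed libraries lay apart above the controls for 2.49% of all genes tested and below them for 6.45%. Acrv1 averaged 171 ± 66.4 CPM in stressed animals and 193 ± 59.7 CPM in controls, with a log2 change of -0.10 (SE 0.29). Spam1 averaged 204 ± 44.8 CPM in stressed and 213 ± 52.0 CPM in control animals (SD, n = 3 each; log2 change 0.02, SE 0.23), and Acr 614 ± 75.5 CPM in stressed and 697 ± 114 CPM in control animals (-0.12, SE 0.21). Log2 changes lay between -0.12, for Acrbp, and 0.15, for Spaca7, with 5 genes above 0 and 5 below. Of all genes tested in these cells 50% were above 0. In stressed replicate 1 macrophage markers summed to 320 CPM in these cells, with 0 of 12 at 0, against 29.7 to 108 CPM in the other 5 libraries, and their part was not tested. Standard errors lay between 0.17 and 0.29, and each gene's was smaller here than in the other classes.

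In elongating spermatid-like cells most of the genes were past their peaks, and stressed replicate 1 lay apart. Acrv1 was at 63.1, 12.9 and 10.7 CPM in the stressed libraries, against 16.9, 17.4 and 19.3 CPM in the controls. Acr was at 406, 174 and 173 CPM in stressed, against 179, 181 and 242 CPM in control libraries. Spaca7 was at 1252, 566 and 462 CPM in stressed, against 426, 520.2 and 733 CPM in control libraries. Stressed replicate 1 was the highest library for all 3 of these genes. In stressed replicate 1 the first elongating cluster on the axis, cluster 7, held 67.7% of these 62 cells, against 8.93% to 16.5% in the other 5 libraries. Macrophage markers, 12 of 12 in the table, summed to 282 CPM in its elongating spermatid-like cells, with 1 at 0, against 53.2 to 78.3 CPM in the other 5. Spermatocyte markers, 18 of 18 in the table, summed to 728 CPM with 4 at 0, against 315 to 436 CPM. Their part in these values was not tested. The class leaves out the unnamed cluster, which scored highest on the elongating spermatid markers and held 223 cells of stressed replicate 1. In those cells Acrv1 was at 2.33 CPM, Acr at 155 CPM and Spaca7 at 134 CPM. The log2 change of Acrv1 was 0.32 (SE 0.46), -0.49 without stressed replicate 1 and -0.37 with the unnamed cluster counted as elongating. Crisp2, which peaks at this stage, was at 2454, 2424 and 2757 CPM in stressed libraries, against 2877, 3230 and 2343 CPM in controls (-0.22, SE 0.31). The groups overlapped for all 10 genes, while stressed libraries lay apart above for 2.53% and below for 3.63% of all genes tested. Of the 10 genes 6 were above 0, with a median of 0.10, and 47.2% of all genes were above 0, with a median of -0.03.

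Matched by stage, over bins 1, 3, 4 and 5 weighted equally, the groups overlapped for all 10 genes. Acrbp came nearest to a difference, at 391, 351 and 451 CPM in stressed libraries, against 481, 446 and 475 CPM in controls (2-sided exact permutation test, p = 0.2, and 0.9 for Spaca7 and Spam1). Summed over whole libraries, 9 of 10 genes were below 0, with Crisp2 the exception, and 48.9% of all genes were above 0. There Spam1 was at 50.8, 48.9 and 64.4 CPM in stressed libraries, against 69.6, 82.3 and 83.7 CPM in controls (log2 change -0.37, SE 0.28), and Acrv1 at 60.5, 43.5 and 54.2 CPM in stressed, against 68.1, 89.3 and 80.5 CPM in control libraries (-0.43, SE 0.29). Both lay lower in all stressed libraries than in all controls, as did 4.33% of all genes, with 1.23% the other way, and neither passed (adjusted p = 0.99995 by edgeR for each). Whole-library sums also hold the make-up by class given above.

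**Figure D4:**
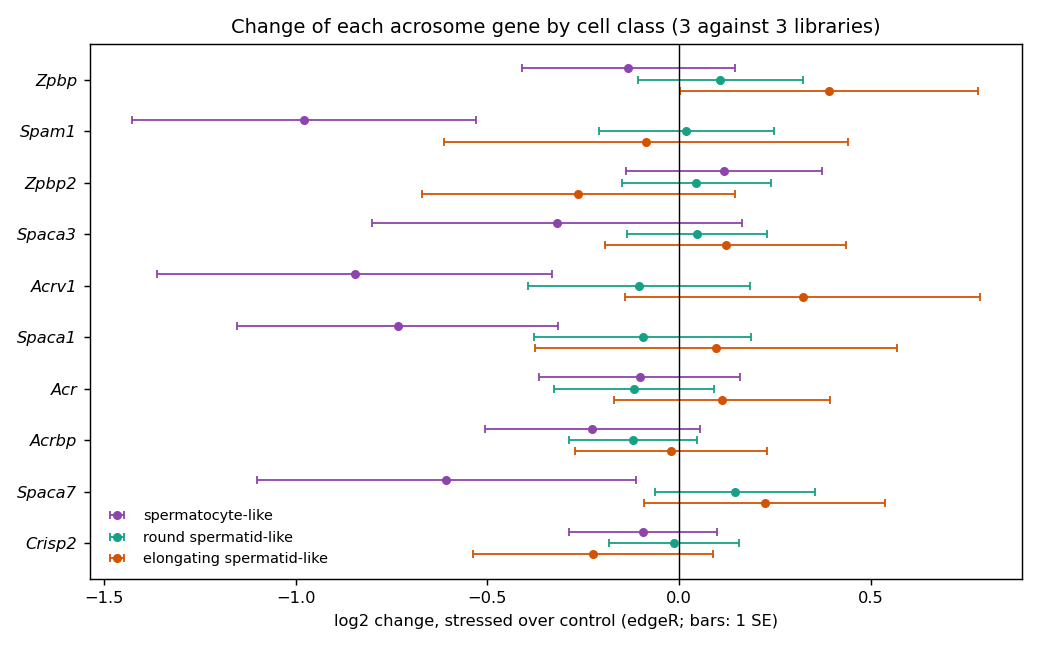
Log2 change of each acrosome gene, stressed over control, in the spermatocyte-like class and both spermatid-like classes (3 against 3 libraries); points are edgeR estimates and bars 1 SE. Spam1 and Acrv1 in spermatocyte-like cells lie lowest, at -0.98 and -0.85, and the round spermatid-like values lie between -0.12 and 0.15.

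Of the 3 further acrosome lists, 0 genes were called in any class or in whole libraries by edgeR. In round spermatid-like cells, 31 genes of contents and membranes had a median log2 change of 0.01, 33 of acrosome formation 0.08 and 18 of the acrosome reaction -0.01. By edgeR 1, 0 and 2 of them had an unadjusted p under 0.05, as did 3.15% of all genes tested in these cells. The smallest p values there belonged to Stxbp2, a partner of syntaxins in vesicle fusion (-1.14, SE 0.40), Nsf, which takes fusion complexes apart (-1.13, SE 0.41), and the vesicle protein gene Vamp2 (-1.85, SE 0.93) among those lower, and to Cst13 (0.63, SE 0.25), Acp3, an acid phosphatase (1.17, SE 0.60), and Hook1, a protein of the spermatid microtubule manchette (0.34, SE 0.19), among those higher. The edgeR adjusted p was 0.991 for all 6. An unadjusted p under 0.05 was also found for 1 of 32 genes of contents and membranes in elongating spermatid-like cells (1.72% of all genes). In whole libraries it was found for 1 of 22 genes of the acrosome reaction (1.38% of all). No list held such a gene in spermatocyte-like cells (1.51% of all). In spermatocyte-like cells the 15 genes of the acrosome reaction had a median of -0.41, the 33 of formation 0.03 and the 29 of contents and membranes -0.07. Named by the same rule, Pcsk4, a proprotein convertase (-0.77, SE 0.40), Vamp2 (-1.44, SE 0.78) and the zona receptor gene Zp3r (-1.20, SE 0.67) were lower there, and Actl9 (1.64, SE 0.80) and Actrt2 (0.98, SE 0.55), both actin-like proteins of the sperm head, and the lysosomal precursor gene Psap (2.92, SE 1.53) higher, and for all 6 the edgeR adjusted p was 0.9995. In elongating spermatid-like cells the lower ones were the autophagy gene Atg7 (-0.91, SE 0.44), the hyaluronidase family gene Hyal6 (-0.53, SE 0.40) and the glucosylceramidase gene Gba2 (-0.60, SE 0.50), and the higher ones Acp3 (1.01, SE 0.44), the deacetylase gene Sirt1 (2.64, SE 1.27) and Napb, a partner of Nsf (1.53, SE 0.91). For these too edgeR gave adjusted p values of 0.99997. Sirt1, Napb, Psap and Vamp2 stayed under 10 CPM in the mean of every bin. Their peak bins were at 4.46, 1.59, 1.95 and 4.79 CPM, so their log2 changes are of low levels. Some of the others passed 10 CPM only outside the class they are named for. Actl9 was at 7.02 CPM in bin 1, of spermatocyte-like cells. Atg7, Hyal6 and Gba2 were at 7.69, 6.88 and 3.04 CPM in bin 10, of elongating cells. Acp3 was at 10.1 CPM in its peak bin and 2.28 CPM in bin 10.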

How the data were processed

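Testicular cells of 3 stressed and 3 control rats were dissociated and sequenced with the Singleron GEXSCOPE single-cell kit, per the labels' protocols. The authors deposited a table of whole-number counts per gene and cell for each library, which was used as deposited. The labels do not state if counts are of reads or molecules, and for aligner, genome build and cell filter the entry is: not given in the sources used here. Between 12.4% and 18.4% of values above 0 equalled 1. No cell fell under 200 genes or over 20% mitochondrial counts. Scrublet called 73 cells (0.622%) as doublets, which were kept.

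Cells were clustered with scanpy 1.11.5 (2000 variable genes less the acrosome lists, 30 components, 15 neighbours, Leiden resolution 1, leidenalg 0.10.2) into 20 clusters. A cluster was named from at least 3 markers. The naming rule is the third version, revised after the clusters were seen and before any fit of stressed against control. Under an earlier one cluster 9, of round spermatid-like cells here, stayed unnamed. Counts were summed per library and class and tested with edgeR 4.0.16 (TMM, filterByExpr, robust quasi-likelihood test, Benjamini-Hochberg over all genes tested, threshold 0.05), in R 4.3.3. The fit was tested on simulated data. DESeq2 1.42.0 was an alternative, and other scaling, no filter, a replicate block, other clusterings, stage matching and each library left out were tried. Exact permutation tests used scipy 1.17.1. The stage order was planned over all 6 libraries; the order over the 5 libraries with at least 20 cells in every bin was chosen after seeing the data.

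Named genes were all 10 members, up to 3 higher and 3 lower of the further acrosome lists by unadjusted p per class, up to 5 that peak at another stage, taken by peak CPM after values were seen, the 8 genes most like the members' mean, and called genes. The members and lists were chosen with earlier results of these data known. Nothing says more of the replicates than that they are separate rats, so p-values measure the spread between these samples.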

Additional observations from a re-analysis of the deposited data

How the results depend on the processing

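Under every alternative 0 of 10 acrosome genes were called, and the lowest adjusted p was 0.850 (edgeR, Acr in round spermatid-like cells without stressed replicate 3). Directions of the 40 gene and class values held in 40 with the replicate block, 38 with RLE size factors, 38 with DESeq2, 39 with no filter and 39 without the highest Scrublet scores. They held in 29 of 30 with acrosome genes in the clustering, 23 of 30 at Leiden resolution 0.5 and 21 of 30 when stage-matched. Stage matching within a class used bin 1 for spermatocyte-like, bins 3 and 4 for round and bin 5 for elongating cells. The last holds 602 elongating spermatid-like cells, so its values cover the start of that class and not the whole. The cause of the changes of sign was not tested. At resolution 0.5 they were, in round spermatid-like cells, Spaca3 -0.011, Zpbp2 -0.0073, Spam1 -0.055 and Crisp2 0.0078, and in elongating ones Acrbp 0.0010, Zpbp -0.0069 and Spam1 0.053. When stage-matched they were Spaca3 -0.064 and Spam1 -0.0065 in round cells, and Acrv1 -0.20, Acr -0.031, Acrbp 0.032, Spaca1 -0.21, Spaca3 -0.25, Zpbp2 0.26 and Spam1 0.13 in elongating ones. With no filter Spam1 was -0.012 in round cells. Cluster 9, whose top-scoring list was that of spermatocytes, was left out of the round class in 1 setting chosen after seeing the data. It was not added to the spermatocyte-like class. Spaca3 was then -0.023 and Spam1 -0.053 in round cells. With the unnamed cluster counted as elongating, Acrv1 was -0.37, Acr -0.029, Spaca1 -0.52, Spaca7 -0.16 and Crisp2 0.11. Acrbp in elongating cells was 0.0033 with RLE and 0.0032 with DESeq2, and Zpbp2 in whole libraries 0.00072 and 0.0010, and 0.014 without the highest Scrublet scores. Spaca3 in elongating cells was -0.051 with acrosome genes in the clustering. With 1 library left out at a time, values that changed sign ranged, in spermatocyte-like cells, for Acr -0.28 to 0.17, Spaca3 -0.55 to 0.16, Spaca7 -0.94 to 0.097, Zpbp -0.30 to 0.086 and Zpbp2 -0.036 to 0.27; in round cells for Acrv1 -0.41 to 0.14, Acr -0.23 to 0.092, Spaca1 -0.45 to 0.11, Spaca3 -0.043 to 0.15, Spaca7 -0.0042 to 0.34, Zpbp -0.091 to 0.24, Zpbp2 -0.052 to 0.13, Spam1 -0.099 to 0.20 and Crisp2 -0.071 to 0.067; in elongating cells for Acrv1 -0.49 to 0.63, Acr -0.10 to 0.27, Acrbp -0.096 to 0.055, Spaca1 -0.45 to 0.63, Spaca3 -0.19 to 0.26, Spaca7 -0.017 to 0.47, Zpbp2 -0.64 to 0.050 and Spam1 -0.23 to 0.078; and in whole libraries for Acr -0.33 to 0.14, Spaca7 -0.36 to 0.29, Zpbp -0.40 to 0.091 and Zpbp2 -0.14 to 0.17. Leaving out control replicate 3 changed 13 signs and stressed replicate 1 changed 11. Over all genes, DESeq2 called 3, 11, 6 and 4 in spermatocyte-like, round, elongating cells and whole libraries, and no filter gave 2, 3, 5 and 2, against 0, 2, 1 and 1 in the edgeR fit. The replicate block gave 0 in round cells, and leaving out cluster 9 gave 1. With 1 library left out the counts ranged from 0 to 0, 0 to 3, 0 to 2 and 0 to 3. Deviations of same-numbered libraries from their group means correlated at r of -0.08 to 0.23 in the 3 classes and -0.14 to 0.21 in whole libraries. For stressed and control libraries with different numbers r was -0.31 to 0.22 in the classes and -0.44 to 0.34 in whole libraries. Both ends of the last range involve control replicate 2. With 3 libraries per group, these values cannot decide whether the numbers pair animals. In the stage order over 6 libraries, 3 of 10 genes kept their place with clusters in place of bins, and 8 to 10 with 1 library left out. Depth limits the values of stressed replicate 1, which has 23 spermatocyte-like and 62 elongating spermatid-like cells.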
